A study of Mus musculus with 12 samples.

Results

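Ribosome biogenesis is the assembly of new ribosomes in the nucleolus, and Myc is a transcription factor best known for driving it in growing cells. The set described here holds 40 genes: Myc and 39 genes for RNA polymerase I transcription, small nucleolar ribonucleoproteins (snoRNPs), multifunctional nucleolar proteins, and processing of the small and the large ribosomal subunit. The members were picked by name for these roles and not by a threshold on their values. Earlier results of these data were known at that time, so counts of members beside all genes are descriptions and not tests. They are 40 of the 29522 genes with a value in the files, and all 40 were among the 13511 genes tested. RNA was sequenced from T helper 17 (Th17) cells of the mouse in 12 libraries, to ask what ILA and GSK805 change in them, alone and together.

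Every group started from naive splenic CD4+ T cells of C57BL/6J mice of wild-type genotype. The cells were activated through CD3 and CD28 in medium with the CytoBox Th17 supplement, so every group, the vehicle group included, carried the activation and the Th17 cytokines. The 4 groups were vehicle, 200 uM ILA, 0.5 uM GSK805, and 0.5 uM GSK805 with 200 uM ILA, each with 3 biological replicates. ILA was taken to be indole-3-lactic acid, which gut bacteria form from tryptophan. GSK805 is a small-molecule inhibitor. The labels give neither the age of the mice, nor the time in culture, nor the animals behind each replicate. The p-values therefore measure the spread between these samples.

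As background, RNA polymerase I transcribes one long precursor that holds the 18S, 5.8S and 28S ribosomal RNAs. Box C/D snoRNPs methylate that RNA and box H/ACA snoRNPs turn uridines into pseudouridine, while large processing complexes cut and fold it into the small and the large subunit. Myc binds DNA with its partner Max, often at the E-box CACGTG, and T cells raise Myc and the nucleolar genes when they are activated.

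The reads recovered from the values came to 17.84 to 23.49 M per library. Libraries correlated at 0.9831 to 0.9866 within a group and at 0.9395 to 0.9806 between groups (Pearson across genes). T cell markers were present in every library, with Trac at 182 to 324 FPKM (fragments per kilobase of gene, scaled to library depth). Cd4 stood at 111 to 121 FPKM with ILA against 41.1 to 43.4 FPKM with vehicle. The Th17 cytokine genes of the same list went the other way. Il17a held 634 to 832 FPKM in vehicle, 153 to 173 with ILA, 97.7 to 122 with GSK805 and 36.4 to 45.5 with both. Il17f held 564 to 656 FPKM in vehicle, 271 to 294 with ILA, 248 to 282 with GSK805 and 131 to 148 with both. The remaining genes of that list were higher with ILA than with vehicle. Cd8a, which marks cytotoxic T cells, reached at most 0.298 FPKM. The summed CD8 T and NK list, with 6 of 7 genes valued and 3 of them under 1 FPKM in every library, held 19.2 to 23.2 FPKM in vehicle, 34.9 to 37.4 with ILA, 15.5 to 17.8 with GSK805 and 20.5 to 21.6 with both. Most of that sum was Klrd1, at 13.8 to 16.1 FPKM in vehicle and 32.2 to 35.1 with ILA, while Cd8b1 (3.47 to 5.0 in vehicle, 0.983 to 1.5 with ILA) and Prf1 (1.04 to 1.75 and 0.537 to 0.759) went the other way, as did Cd8a. ILA replicate 2 stood apart by its haemoglobin genes, with Hba-a1 at 18.2 and Hbb-bs at 23.3 FPKM, where all other libraries held 0 to 0.0587 FPKM. Its erythroid and platelet list (5 of 6 genes valued) summed to 43.1 FPKM against 1.82 to 2.24 in vehicle, and the call on Rrn3 rested on that library. The part of these other markers in the member results was not tested.

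The letters of the Myc and Max site could be read in 34 of the 40 members, which had a window around the transcript start in the RefSeq table for GRCm38.p6. Of these, 8 held CACGTG (23.5%), against 8.09% of 27025 genes in that table and 12.2% of the 8653 tested genes with a window. The related CACGCG, searched on both strands, was in 13 of the 34 (38.2%), against 10.5% and 20.5%. The sites below were chosen to span the members with the motif, from Utp20, which changed most with ILA, to Rrn3, which changed least. Each is printed 5′ to 3′ on the strand of its gene, with the E-box in capitals.
Utp20: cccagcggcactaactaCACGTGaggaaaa
Mybbp1a: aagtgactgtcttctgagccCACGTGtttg
Pes1: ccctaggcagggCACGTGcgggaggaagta
Nop2: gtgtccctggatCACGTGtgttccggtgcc
Rrn3 (upstream site): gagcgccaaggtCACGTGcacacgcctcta
Rrn3 (near site): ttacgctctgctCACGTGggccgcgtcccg

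The Utp20 site lies at chr10:88826765-88826794 on the minus strand, with the E-box starting at base 38 of the transcript. The Mybbp1a site (chr11:72441347-72441376, plus strand) starts its E-box at base 41 of the transcript and the Pes1 site (chr11:3963965-3963994, plus strand) at base 3. The Nop2 E-box (chr6:125131811-125131840, plus strand) starts 60 bases upstream of the transcript. Rrn3 held 2 of them, starting 215 and 48 bases upstream (chr16:13780472-13780501 and chr16:13780639-13780668, plus strand). Ltv1, Utp4 and Wdr43 held the motif inside the transcript's first bases as well. The 8 members with CACGTG had a median log2 difference of -0.54 between ILA and vehicle, from -1.02 to -0.19, and the 26 members with a window and without it had -0.6, from -0.87 to 0.21. A match of letters is a description of the window and not evidence of binding.

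In vehicle cells the members were among the abundant transcripts. Their median was 46.0 FPKM, against 6.73 FPKM over all tested genes, and their median percentile was 91.6. Npm1, which encodes nucleophosmin, a chaperone of ribosome assembly, was highest at 523 ± 6.13 FPKM (SD, n = 3). Wdr12, a partner of Pes1 and Bop1 in large subunit processing, was lowest at 3.54 ± 0.0978 FPKM. FPKM is scaled to gene length. The lengths that recovered whole reads join all annotated exons of a gene, which gave 11955 bp for Wdr12 and 2665 bp for Npm1. The order of levels between genes therefore depends in part on these gene models. The members lay on 19 chromosomes, and their median GC content of 50.8% was close to the 49.7% of all tested genes.

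ILA alone lowered 39 of the 40 members, Myc among them, and only Ubtf, a polymerase I transcription factor, was higher, a call lost under median centring and under removal of GC and length trends. Over all tested genes 24.0% were called lower and 33.9% higher (limma, adjusted p below 0.05). All 39 lower members had the 3 ILA libraries below the 3 vehicle libraries, as had 26.3% of all genes. The median difference over the members was -0.57 on the log2(FPKM + 1) scale, a fall of 1.49-fold, while the median of all tested genes was 0.06. Of the 39 members other than Myc, 27 lay in the lowest 10% of all genes by their difference and 36 in the lowest 25%. Adjusted p-values ran from 7.4e-08 to 0.0127. All fold values here are ratios of FPKM + 1, which understates changes of low genes, and in bulk RNA fewer cells of a type and less RNA per cell cannot be told apart.

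**Figure D1:**
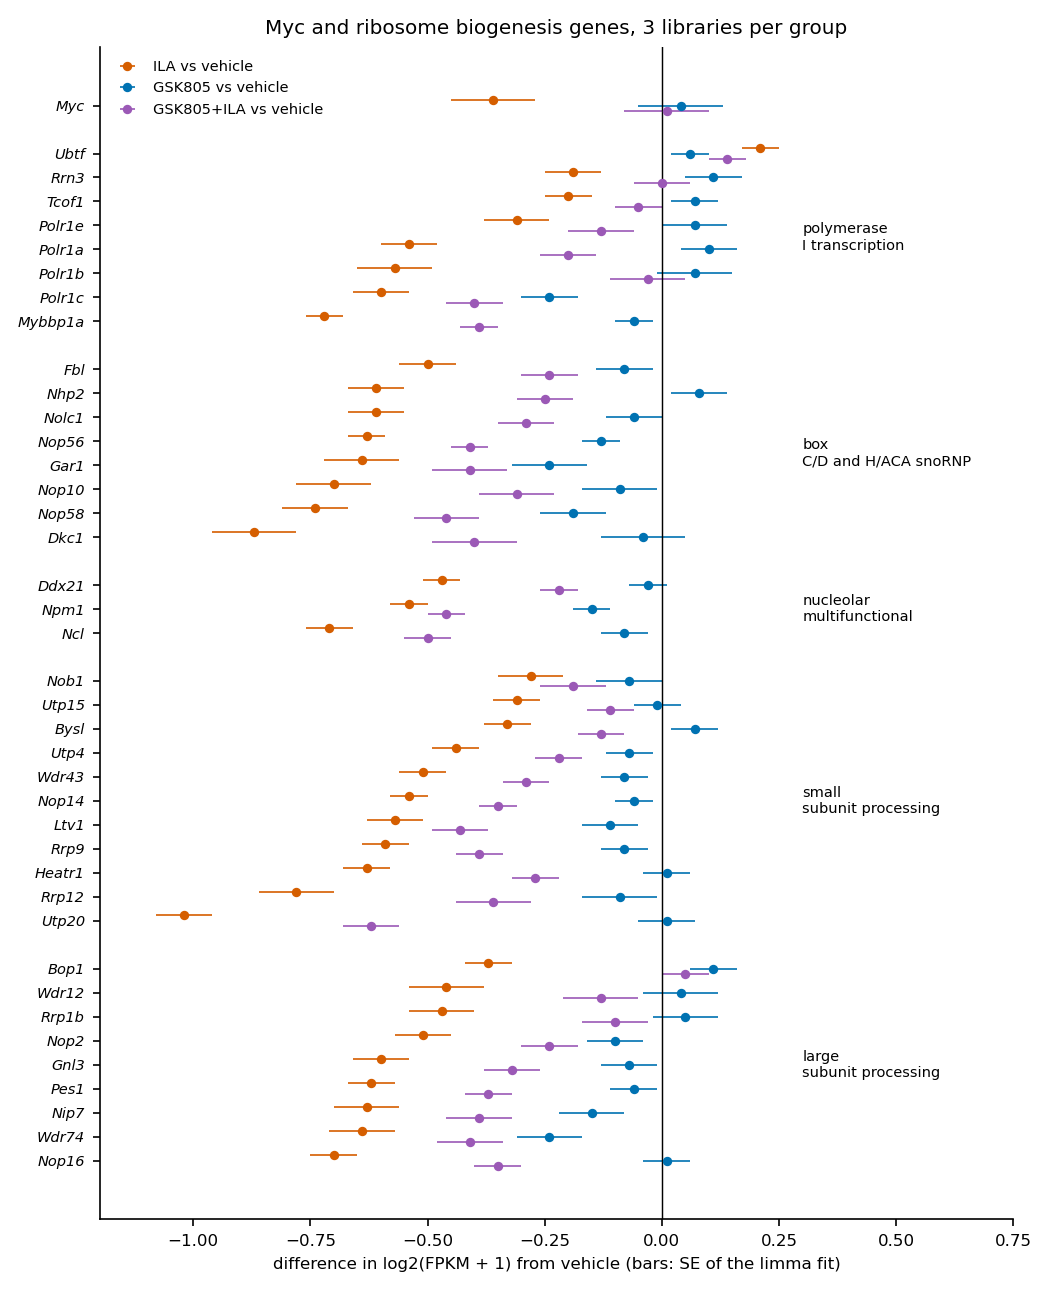
Difference in log2(FPKM + 1) from vehicle (x axis) for each of the 40 genes, grouped by role (y axis), with 1 point per treated group and bars for the standard error of the limma fit (3 libraries per group). ILA points lie left of 0 for 39 genes, with Utp20 at -1.02, and GSK805 points lie between -0.24 and 0.11.

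Myc (ENSMUSG00000022346, chromosome 15, 61985391 to 61990374, plus strand, GRCm38) fell by less than most genes of the set. Its level was 124, 127 and 126 FPKM in the vehicle libraries and 86.3, 99.5 and 109 FPKM with ILA. GSK805 libraries held 122, 127 and 139 FPKM, and those with both compounds 119, 121 and 142 FPKM. Every ILA library lay below every vehicle library, whereas the GSK805 groups overlapped vehicle. The ILA libraries spread more (SD 11.3) than the vehicle libraries (SD 1.34). ILA lowered Myc 1.28-fold (log2 difference -0.36, SE 0.09, adjusted p = 0.00371). With GSK805 the difference from vehicle was 0.04 (adjusted p = 0.797), and with both compounds it was 0.01 (adjusted p = 0.906). Under median centring the differences with GSK805 and with both compounds became -0.04 and -0.12, neither of them called. The size of the ILA difference depended on scaling. It was -0.5 under median centring, -0.46 with GC and length trends removed and -0.32 under quantile normalization, called in each.

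**Figure D2:**
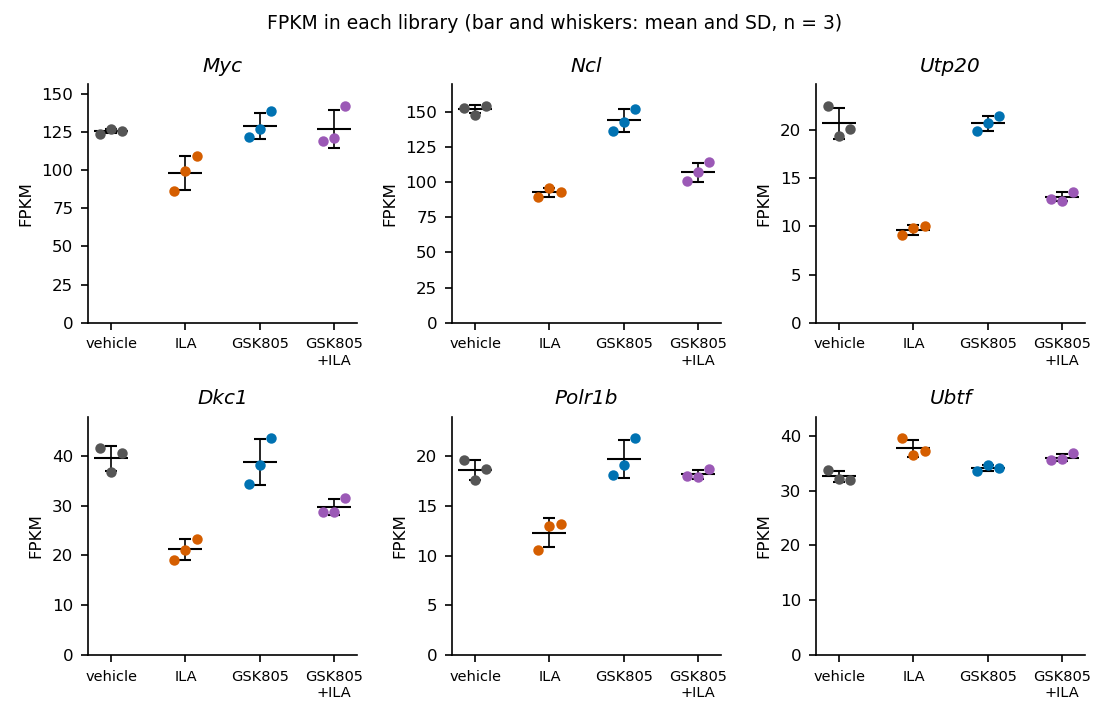
FPKM (y axis, from 0) in each of the 12 libraries by group (x axis) for Myc, Ncl, Utp20, Dkc1, Polr1b and Ubtf, with bars and whiskers for mean and SD (n = 3). With both compounds Myc and Polr1b overlap vehicle, at means of 127 and 18.2 FPKM, while Ncl, Utp20 and Dkc1 lie between the ILA and the vehicle libraries.

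Among the polymerase I genes ILA lowered 7 of 8 (median -0.43). Mybbp1a, a nucleolar protein that binds Myb and takes part in ribosomal RNA synthesis, held 111, 110 and 106 FPKM with vehicle and 63.6, 66.0 and 68.0 FPKM with ILA. It was the polymerase I member that fell most, 1.65-fold (-0.72, adjusted p = 1.0e-07), with no overlap. The enzyme's catalytic subunits fell together: Polr1a, the largest, from 16.8 ± 0.594 to 11.3 ± 0.831 FPKM (n = 3, limma adjusted p = 1.3e-05), and Polr1b, the second largest, from 18.6 ± 1.01 to 12.3 ± 1.46 FPKM (n = 3, limma adjusted p = 1.3e-04). Polr1c, a subunit shared with polymerase III, fell 1.51-fold and Polr1e 1.24-fold.

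Among the polymerase I members, Rrn3, Tcof1 and Ubtf moved least. Rrn3, which brings polymerase I to the promoter, held 20.2, 19.2 and 19.1 FPKM with vehicle and 17.8, 15.7 and 17.5 FPKM with ILA. Its fall of 1.14-fold (-0.19, adjusted p = 0.0127) was the smallest of the 39, and without ILA replicate 2 it was -0.14 and not called (adjusted p = 0.0546). Tcof1, the treacle protein that couples ribosomal RNA transcription to modification, fell 1.15-fold (adjusted p = 0.00294). Ubtf, which opens ribosomal DNA for polymerase I, held 33.7, 32.1 and 31.9 FPKM with vehicle and 39.5, 36.5 and 37.2 FPKM with ILA. Its ILA libraries all lay above vehicle, and it rose 1.15-fold (0.21, adjusted p = 7.3e-04), but the difference was 0.07 after median centring (adjusted p = 0.13) and 0.06 after removal of GC and length trends (adjusted p = 0.225).

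All 8 snoRNP genes fell with ILA, by a median of -0.63. Dkc1, the pseudouridine synthase dyskerin of the box H/ACA class, fell most of these, from 41.5, 36.7 and 40.5 FPKM to 19.1, 21.1 and 23.3 FPKM. That is 1.83-fold lower (-0.87, SE 0.09, adjusted p = 7.9e-06), and the highest ILA library stood far below the lowest vehicle library. Its partners Gar1, Nhp2 and Nop10 fell 1.56-fold, 1.53-fold and 1.63-fold. In the box C/D class, the scaffold protein Nop58 held 29.6, 27.9 and 31.6 FPKM with vehicle and 16.3, 17.0 and 18.8 FPKM with ILA, 1.67-fold lower without overlap (adjusted p = 5.1e-06). Nop56, its scaffold partner, fell 1.54-fold and Fbl, the methyltransferase fibrillarin, 1.42-fold. Nolc1, which chaperones snoRNPs in the nucleolus and Cajal bodies, fell 1.53-fold (adjusted p = 7.0e-06).

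The 3 multifunctional nucleolar genes fell with ILA by -0.71 for Ncl, -0.54 for Npm1 and -0.47 for Ddx21. Ncl encodes nucleolin, which binds precursor ribosomal RNA, and held 153, 148 and 154 FPKM with vehicle and 89.2, 96.1 and 92.7 FPKM with ILA (1.63-fold lower, adjusted p = 5.7e-07). Npm1 held 518, 521 and 530 FPKM with vehicle and 358, 369 and 353 FPKM with ILA. Neither gene's groups overlapped. Ddx21, an RNA helicase that also acts in polymerase I transcription, fell from 115 ± 2.75 to 82.6 ± 3.59 FPKM (n = 3, limma adjusted p = 2.7e-06).

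The 11 small subunit genes all fell with ILA (median -0.54) and included the member that changed most. Utp20 (chromosome 10, 88746607 to 88826804, minus strand), a very large scaffold of the early small subunit particle, held 22.5, 19.4 and 20.1 FPKM with vehicle and 9.12, 9.8 and 10.1 FPKM with ILA. It was 2.03-fold lower (-1.02, SE 0.06, adjusted p = 7.4e-08), and its ILA libraries lay close together. Rrp12, which helps to export both subunits, held 41.7, 38.1 and 34.9 FPKM with vehicle and 20.5, 22.5 and 22.5 FPKM with ILA, 1.72-fold lower. Heatr1 and Wdr43, components of the complexes that bind the nascent precursor, fell 1.55-fold and 1.42-fold. Rrp9, a protein of the U3 snoRNP, fell 1.5-fold, the export factor Ltv1 1.49-fold and Nop14 1.46-fold. The smallest falls were those of Nob1, the nuclease that makes the 3′ end of 18S ribosomal RNA (1.22-fold, adjusted p = 0.006), Utp15 (1.24-fold) and the late factor Bysl (1.26-fold). Utp4 fell 1.36-fold.

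The 9 large subunit genes all fell with ILA as well (median -0.6). Nop16 held 41.6, 38.1 and 38.5 FPKM with vehicle and 23.2, 23.2 and 25.5 FPKM with ILA and fell most, 1.62-fold (-0.7, adjusted p = 4.1e-07). Wdr74, which acts in late nucleolar maturation, fell 1.56-fold, Nip7 1.54-fold, the GTPase nucleostemin (Gnl3) 1.52-fold and the RNA methyltransferase Nop2 1.43-fold. Pes1, Bop1 and Wdr12 form the PeBoW complex of large subunit processing. Pes1 fell 1.54-fold, from 56.9 ± 1.16 to 36.7 ± 1.01 FPKM (n = 3, limma adjusted p = 1.4e-06), Bop1 1.29-fold and Wdr12 1.37-fold. Bop1 (chromosome 15, 76452989 to 76477277, minus strand) held 54.2, 53.5 and 51.3 FPKM with vehicle and 38.5, 40.8 and 42.9 FPKM with ILA, which was the smallest fall of this class. Rrp1b fell 1.39-fold (adjusted p = 1.3e-04).

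GSK805 alone left most members near vehicle. It lowered 5 of the 40 and raised 0, where 7.08% of all genes were called lower and 15.7% higher. Higher members also numbered 0 at an unadjusted p below 0.05 and 0 by voom on recovered reads. The 5 were Polr1c (-0.24, adjusted p = 0.0155), Gar1 (-0.24, adjusted p = 0.0478), Wdr74 (-0.24, adjusted p = 0.0213), Npm1 (-0.15, adjusted p = 0.0202) and Nop56 (-0.13, adjusted p = 0.0307). Npm1 held 458, 460 and 493 FPKM with GSK805, all below the vehicle libraries, but under quantile normalization its difference turned to 0.09 (adjusted p = 0.149). The Polr1c groups overlapped at 57.1, 58.5 and 66.5 FPKM against 66.2, 73.3 and 76.0 FPKM. The median over the members was -0.06, beside 0.05 over all genes, and values ran from -0.24 to 0.11, the latter for Rrn3 and Bop1. None of the 5 calls was kept under every alternative. The count was 0 without GSK805 replicate 1, GSK805 replicate 2 or vehicle replicate 3, 2 without vehicle replicate 2 and 3 without vehicle replicate 1.

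With both compounds 29 members were lower than with vehicle, 1 was higher and 10 were not called, where 20.3% of all genes were called lower and 31.8% higher. The median was -0.29 over the members and 0.06 over all genes. In 33 members all 3 libraries lay below vehicle, as they did in 23.7% of all genes. Counts differed by role: all 8 snoRNP genes, all 3 multifunctional nucleolar genes, 9 of 11 small subunit genes and 6 of 9 large subunit genes were lower, but 3 of 8 polymerase I genes. Those 3 were Polr1c (-0.4), Mybbp1a (-0.39) and Polr1a (-0.2). The differences in count between roles were not tested. Utp20 held 12.9, 12.7 and 13.6 FPKM and was again the lowest relative to vehicle (-0.62, adjusted p = 5.4e-06). Ncl followed with 101, 107 and 114 FPKM (-0.5, adjusted p = 1.3e-05), and in both genes every library lay below vehicle. Among snoRNP genes Nop58 was at -0.46 and Gar1 at -0.41, and Fbl at -0.24 and Nhp2 at -0.25 differed least. Ltv1 was at -0.43, Wdr74 at -0.41 and Nip7 at -0.39.

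The 10 members not called with both compounds were Myc, Polr1b, Polr1e, Rrn3, Tcof1, Utp15, Bysl, Bop1, Wdr12 and Rrp1b, all of which ILA alone had lowered. Polr1b held 18.0, 17.9 and 18.7 FPKM, inside the vehicle range of 17.6 to 19.6 (-0.03, adjusted p = 0.79). Bop1 held 55.8, 52.3 and 56.4 FPKM, which overlapped vehicle (0.05, adjusted p = 0.47), but with GC and length trends removed it was lower (-0.14, adjusted p = 0.0456). Rrn3 stood at 0.0 (adjusted p = 0.969). Wdr12 held 3.01, 3.08 and 3.37 FPKM, and these lay below its vehicle libraries at 3.47, 3.5 and 3.65 without passing the test (-0.13, adjusted p = 0.184). Nob1, at -0.19, was called narrowly (adjusted p = 0.0452), and 11 alternatives lost that call. Ubtf, at 35.5, 35.8 and 36.8 FPKM, was higher by 0.14 (adjusted p = 0.00891), but stood at 0.0 after median centring (adjusted p = 0.933) and at -0.02 after removal of GC and length trends (adjusted p = 0.763).

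Against GSK805 alone, adding ILA lowered 25 members and raised 0, where 17.5% of all genes were called lower and 22.0% higher (limma). No member was higher at an unadjusted p below 0.05 (0) or by voom on recovered reads (0). The median difference was -0.22, with 0.02 over all genes, and 29 members had lower libraries without overlap, as had 23.9% of all genes. Utp20 fell 1.54-fold (-0.63, adjusted p = 1.0e-05), Ncl 1.34-fold (-0.42, adjusted p = 9.2e-05) and Dkc1 1.29-fold (-0.37, adjusted p = 0.00749). Dkc1 held 34.4, 38.1 and 43.5 FPKM with GSK805 and 28.8, 28.7 and 31.6 FPKM with both, so the groups did not overlap. Nop16 (-0.35), Nhp2, Mybbp1a (both -0.33), Ltv1 (-0.32), Pes1 and Polr1a (both -0.31) also fell. Myc stood at -0.02 (adjusted p = 0.855) and Bop1 at -0.06, Polr1b at -0.1 and Utp15 at -0.1 were not called. The call on 18 of the 25 was kept under every alternative.

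The difference between the effect of ILA with and without GSK805, tested as an interaction, was positive for 27 members and negative for 0, where 5.15% of all genes were called positive and 8.7% negative (limma). Negative members numbered 1 at an unadjusted p below 0.05, Ubtf, and 0 by voom on recovered reads. A positive value here means that ILA lowered the gene by less when GSK805 was present. The median interaction was 0.31 over the members and -0.05 over all genes. The highest values were those of Dkc1 (0.51, SE 0.13, adjusted p = 0.0239) and Rrp12 (0.51, SE 0.11, adjusted p = 0.0132), and the lowest adjusted p that of Nop56 (0.35, adjusted p = 0.00305). The snoRNP genes had 7 of 8 called, the large subunit genes 7 of 9, the small subunit genes 7 of 11 and the polymerase I genes 3 of 8 (Polr1b, Polr1c and Mybbp1a). Myc had 0.34 and was not called (adjusted p = 0.0878). It passed with median centring (0.41, adjusted p = 0.0471) and without ILA replicate 3 (0.41, adjusted p = 0.0413). It also passed with the replicate number as a block (0.34, adjusted p = 0.0222). Over its alternatives the adjusted p ran from 0.0222 to 0.204. The call on 13 of the 27 was kept under every alternative, and without GSK805+ILA replicate 3 the count was 16. Both ILA effects are set side by side as 2 comparisons without a shared library. Across the 39 members other than Myc they gave Pearson 0.81 and Spearman 0.73, as a description across genes of the same libraries. The ILA effect was further down without GSK805 for 38 of these 39, by a median of 0.31. The effect with GSK805 had a median ratio of 0.418 to the one without. The correlations, the count of 38 and the ratio were not taken over all tested genes. By the interaction, the median of the 39 lay at percentile 91.3 of all tested genes.

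**Figure D3:**
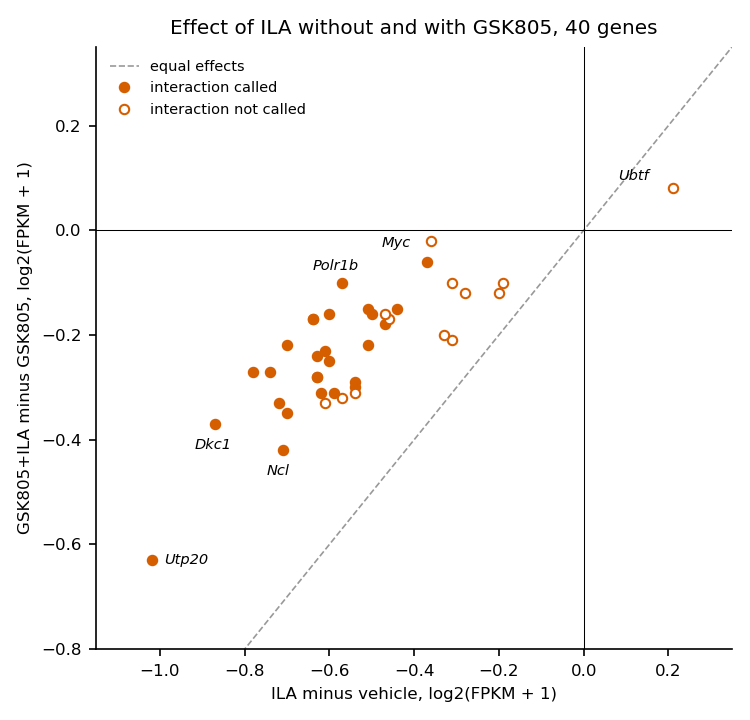
Effect of ILA without GSK805 (x axis) against its effect with GSK805 (y axis), both as differences in log2(FPKM + 1), 1 point per gene for 40 genes, with filled points where limma called the interaction and a dashed line of equal effects. All points but Ubtf lie above the line, from Utp20 at -1.02 and -0.63 to Myc at -0.36 and -0.02.

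Compared with ILA alone, the libraries with both compounds held more of 34 members and less of 0, where 9.92% of all genes were called higher and 8.64% lower (limma). Lower members were 0 at an unadjusted p below 0.05 and 0 by voom on recovered reads as well. The median was 0.25, beside 0.02 over all genes. Polr1b rose most, 1.45-fold (0.54, adjusted p = 0.00158), from 10.6, 13.0 and 13.2 FPKM to 18.0, 17.9 and 18.7 FPKM. Dkc1 rose 1.39-fold, Bop1 1.34-fold, Rrp12 1.33-fold and Utp20 1.32-fold. Myc was 1.3-fold higher (0.37, adjusted p = 0.0121), all 3 libraries above those with ILA, and with only these groups in the fit that call was lost (adjusted p = 0.0507). The 6 members not called were Polr1e, Ubtf, Gar1, Npm1, Nob1 and Ltv1. Npm1 held 362, 381 and 400 FPKM with both compounds, which overlapped the ILA libraries. Without GSK805+ILA replicate 3 the count of higher members was 21. By group means, ILA was the lowest of the 4 groups in 39 members and GSK805+ILA the second lowest in 36 of those. Ubtf had the reverse order, from vehicle up to ILA.

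The members other than Myc were next set beside Myc itself. With ILA 32 of the 39 were further down than Myc, and with both compounds 37 of 39 were. Among all tested genes, ordered by their difference, Myc lay at percentile 15.6 with ILA and at percentile 44.6 with both compounds. As a mean over the 39 genes relative to the vehicle mean, the ILA libraries stood at -0.59, -0.53 and -0.49, and Myc in the same libraries at -0.54, -0.33 and -0.21. With both compounds the 39 genes stood at -0.31, -0.3 and -0.21 and Myc at -0.08, -0.05 and 0.17. With GSK805 they stood at -0.12, -0.05 and 0.04, and Myc at -0.05, 0.02 and 0.14. Thus the libraries with both compounds were low for the 39 genes and spread around vehicle for Myc. In every ILA library 38 of the 39 members lay below the lowest vehicle library, as did 33 to 35 with both compounds. With GSK805 that number was 26, 18 and 7 in replicates 1, 2 and 3, so this count differed widely between the libraries of that group. The same counts for single libraries were not taken over all tested genes, so these numbers have no background beside them.

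**Figure D4:**
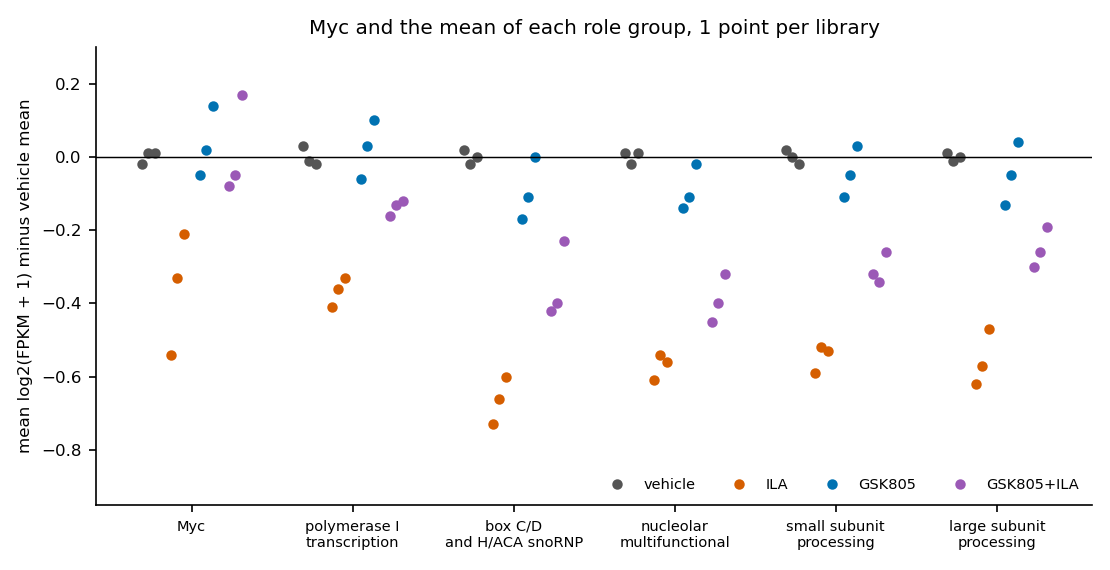
Mean of log2(FPKM + 1) minus the vehicle mean (y axis) for Myc and for each role group (x axis), 1 point per library and colours for the 4 groups. With both compounds Myc lies from -0.08 to 0.17, the polymerase I mean from -0.16 to -0.12 and the snoRNP mean from -0.42 to -0.23.

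Each member was also tested as its log2 value minus that of Myc in the same library, a test added after seeing the data. All such tests share the values of Myc, so their counts are not independent. With ILA 17 of the 39 were lower relative to Myc, 1 was higher and 21 were not called, where 4.32% of all genes were called lower and 57.2% higher. Utp20 (-0.66, adjusted p = 2.7e-05), Dkc1 (-0.51, adjusted p = 1.3e-04) and Rrp12 (-0.42, adjusted p = 0.0021) led, and Ubtf was the higher one (0.57, adjusted p = 2.0e-04). All polymerase I genes other than Mybbp1a (-0.36) and Ubtf were not called, with Polr1c at -0.24 and Polr1b at -0.21. Of the snoRNP genes 7 of 8 were lower, and Fbl (-0.14, adjusted p = 0.204) was not called. With both compounds 25 were lower relative to Myc and 14 were not called, against 11.9% of all genes lower and 19.9% higher. Against GSK805 alone 8 were lower and 31 not called, where 5.41% of all genes were called lower.

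Other genes of the same pathway were counted from lists written from general knowledge. Their counts stand beside 24.0% of all genes lower and 33.9% higher with ILA, and 20.3% lower and 31.8% higher with both compounds. Of 45 other large subunit genes ILA lowered 42 and raised 1 (median -0.39), and of 43 other small subunit genes it lowered 35 and raised 0 (median -0.33, with 1 higher at an unadjusted p below 0.05 in limma). Mdn1, a giant ATPase that remodels the large subunit, fell 2.37-fold to 15.7 ± 1.28 FPKM (n = 3, -1.25, limma adjusted p = 1.3e-06). Pno1, an assembly factor of the small subunit, fell 1.94-fold, Ebna1bp2 1.8-fold, Fcf1 1.78-fold and Rcl1 1.76-fold. Nsa2, also of the large subunit, rose 1.18-fold (adjusted p = 5.2e-05). With both compounds 31 of the 45 and 25 of the 43 were lower than with vehicle, and 0 and 2 were higher, Bud23 (0.16) and Emg1 (0.13).

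The other polymerase I and snoRNP genes were more mixed. Of 14 other polymerase I genes ILA lowered 8 and raised 1, Taf1b (0.56, adjusted p = 4.1e-05), a subunit of the promoter factor SL1. Among those lowered were Taf1d (-0.52) and Polr2l (-0.63), Polr2k (-0.6) and Polr2h (-0.49), which are shared with the other nuclear RNA polymerases. With both compounds 4 of these 14 were lower, a share not far from the 20.3% of all genes, and 2 higher, Polr2e (0.43) and Taf1b (0.26). Of 14 other snoRNP genes ILA lowered 9, with Naf1, an assembly factor of box H/ACA particles, at -0.57 and Ruvbl1 and the RNA-binding Snu13 at -0.54. It raised 3, with Nop53 (0.43), which is known mainly for large subunit assembly, and Pih1d1 (0.34) at the top. With both compounds 6 of the 14 were lower and 1 higher, Coil (0.22). Of 12 tested genes of the exosome, which trims precursor RNA, ILA lowered 6, with Exosc5 (-0.52) and Dis3 (-0.44) furthest, and raised Exosc10 (0.11). With both compounds 3 of them were lower, close to the share of all genes, Exosc5 and Exosc9 (both -0.23) among them, and Exosc7 was higher (0.25).

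In the Myc network ILA lowered 5 of 16 tested genes and raised 3. Of all genes 24.0% were lower and 33.9% higher, and the network's share of lower genes was close to the former. Max, the partner that Myc needs to bind DNA, fell from 66.1 ± 1.52 to 49.0 ± 1.09 FPKM (n = 3, -0.43, limma adjusted p = 9.3e-06), and with both compounds stood at 59.5 ± 3.59 FPKM (-0.15, adjusted p = 0.0151). Mxd1, which pairs with Max in place of Myc and represses, fell by 0.61 with ILA (adjusted p = 5.7e-05) and by 0.46 with both compounds. Mxd4 (-0.42) and Mnt (-0.27), of the same kind, also fell with ILA. Bin1, named for its interaction with Myc, rose 2.01-fold (adjusted p = 3.8e-09) and Usp28, a deubiquitinase that stabilises Myc protein, 1.26-fold. With both compounds 6 of the 16 were lower and 4 higher, against 20.3% and 31.8% of all genes, and Aurka was furthest down (-0.69, adjusted p = 1.2e-04). Of 40 Myc targets outside the ribosome ILA lowered 29 and raised 6 (median -0.38). Slc1a5, a glutamine transporter, fell 2.1-fold, Nampt, of NAD synthesis, 2.02-fold and Shmt1, of folate metabolism, 1.81-fold, while Ldha, of lactate production, rose 1.24-fold, Atic 1.23-fold and Prmt5 1.12-fold. With both compounds 22 of the 40 were lower and 5 higher (median -0.18).

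A minority of the members carry other RNAs in their genes. Of the 40, 6 host small nucleolar RNAs inside their gene in GENCODE vM21 (15.0%, with 19 snoRNAs in all), against 333 of 13303 tested genes with an annotation (2.5%). The hosts were Nop56, Nop58, Dkc1, Ncl, Wdr43 and Gnl3. Their median difference with ILA was -0.67, and that of the 34 other members -0.54. Further, 16 of the 40 members overlap a gene on the opposite strand somewhere in their span, introns included. Examples are Dkc1 with Mpp1, Nop56 with Idh3b and Bysl with Ccnd3. That count was not taken over all tested genes, and overlap of exons was not looked at. No label or header says that reads were counted by strand, so reads from any stretch of overlapping exons cannot be told apart.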

How the data were processed

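Total RNA of 12 libraries was sequenced. The authors deposited FPKM, which were taken unchanged. FastQC 0.11.2, Bowtie and the build mm10 are named per the submitters' processing notes. The Bowtie version, counting program and annotation were not given in the sources used here, nor was strand handling. With GENCODE vM21 gene lengths, 98.6% to 98.8% of values per library lay within 0.1 of a whole number of reads, which gave the depths.

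Genes averaging 1 FPKM or more in any group were tested (13511). A model with 1 mean per group over all 12 libraries was fitted to log2(FPKM + 1) with limma 3.58.1 in R 4.3.3, with trend and robust moderation. Comparisons were contrasts of that model, and p-values were adjusted by Benjamini-Hochberg over all genes, with calls below 0.05. The fit was tested on simulated data. Members and lists were chosen with earlier results of these data known, so lists are given by counts and medians without a test. Samples were grouped by their titles.

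Named genes were Myc, the 2 members highest and the 2 lowest by log2 difference in each role (1 each in the smallest), members called in the interaction or in none of the comparisons with vehicle, the highest and lowest in vehicle, up to 2 rises and 2 falls per other list with at least 5 FPKM, and Max. Mxd4, Mnt and the remaining members were named after their values were seen. Across all tested genes, deviations from group means correlated at -0.082 to 0.078 over 18 same-numbered pairs and -0.064 to 0.08 over 36 other pairs. Between ILA and GSK805 the same-numbered pairs stood at 0.053, 0.05 and 0.078, and the other pairs at -0.041 to -0.013. Between GSK805 and GSK805+ILA the same-numbered pairs ran from -0.082 to 0.031. Whether replicate numbers pair the samples was not settled by these values. Alternatives were a pseudocount of 0.1, filtering at 5 FPKM or not at all, quantile normalization, median centring, no trend or robust moderation, the groups compared only, the replicate block and leaving out each library. Voom on recovered reads, removal of GC and length trends and the test relative to Myc were chosen after seeing the data. Promoter sequences are from RefSeq (GRCm38.p6). Python 3.11.15 with pandas 2.3.3, numpy 2.4.6 and matplotlib 3.10.9 made the tables and plots.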

Additional observations from a re-analysis of the deposited data

Results flagged for a closer look

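The effect of ILA differed between cells with and without GSK805 for 27 members and for Max, by limma's test of the interaction (adjusted p below 0.05, 3 libraries per group). All 28 values were positive on the log2(FPKM + 1) scale, so that ILA lowered each gene by less when GSK805 was present. Among the polymerase I genes the interaction was 0.47 for Polr1b, 0.44 for Polr1c and 0.39 for Mybbp1a. Among the snoRNP genes it was 0.51 for Dkc1, 0.48 for Nop10, 0.47 for Nop58 and Gar1, 0.38 for Nolc1, 0.35 for Nop56 and 0.34 for Fbl. The multifunctional nucleolar genes had 0.29 for Ncl and Ddx21 and 0.24 for Npm1. In the small subunit class it was 0.51 for Rrp12, 0.39 for Utp20, 0.35 for Heatr1, 0.29 for Utp4 and Wdr43, 0.28 for Rrp9 and 0.25 for Nop14. In the large subunit class it was 0.47 for Wdr74, 0.39 for Nip7, 0.37 for Nop2, 0.35 for Gnl3, 0.34 for Nop16 and 0.31 for Bop1 and Pes1. Max had 0.31 (adjusted p = 0.00988). Myc, at 0.34, was not called (adjusted p = 0.0878). It passed with median centring (adjusted p = 0.0471), without ILA replicate 3 (adjusted p = 0.0413) and with the replicate number as a block (adjusted p = 0.0222). Over its alternatives Myc had adjusted p-values from 0.0222 to 0.204. Its difference from the called genes was not tested.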

How the results depend on the processing

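Of the 40 calls with ILA, 38 were kept under every alternative that tested the gene, the exceptions being Rrn3 and Ubtf. Wdr12, with a group mean of at most 3.67 FPKM, was not tested under the filter at 5 FPKM. With both compounds against vehicle 28 of 30 calls were kept. Kept calls numbered 18 of 25 for both compounds against GSK805, 20 of 34 for both against ILA, 13 of 27 for the interaction and 0 of 5 for GSK805. The members called higher with ILA and with both compounds against vehicle (1 each, Ubtf) became 0 with median centring and 0 with GC and length trends removed. The 5 members lower with GSK805 became 9 with median centring, 2 without a filter, 3 with only the groups compared, 2 with quantile normalization and 3 without trend and robust moderation. The 27 positive interactions became 13 without a filter. For Myc, both compounds against ILA gave 0.37 with only the groups compared (adjusted p = 0.0507), and the interaction passed with median centring (0.41, adjusted p = 0.0471).

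Leaving out each library in turn gave 38 to 39 members lower with ILA, 28 to 29 with both compounds against vehicle, 18 to 28 with both against GSK805 and 0 to 5 with GSK805. It gave 21 to 34 higher in both against ILA and 16 to 31 positive interactions. For Myc it gave -0.44 to -0.27 with ILA, 0.29 to 0.45 for both against ILA and 0.25 to 0.41 for the interaction (adjusted p = 0.0413 to 0.18, the lowest without ILA replicate 3).

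With the replicate number as a block the Myc interaction was 0.34 and called (adjusted p = 0.0222), and 39, 29 and 30 members were lower with ILA, with both compounds against vehicle and with both against GSK805. Over all tested genes, deviations of same-numbered libraries correlated at a median of 0.009, and those of other pairs at -0.01. In the 39 members other than Myc, though, the mean rose from replicate 1 to 3 in each treated group. It went from -0.59 to -0.49 with ILA, from -0.12 to 0.04 with GSK805 and from -0.31 to -0.21 with both. In vehicle that mean went from 0.02 to -0.01. Myc rose in the same order in the treated groups. Whether the numbers mark samples handled together was not tested.

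Among differences called as reported or under the alternative, 3 changed sign. Bop1 with both compounds against vehicle was -0.14 with GC and length trends removed (adjusted p = 0.0456), Ubtf there was -0.02 (adjusted p = 0.763), and Npm1 with GSK805 was 0.09 with quantile normalization (adjusted p = 0.149). The cause was not tested. Myc differences near 0 that were never called changed sign too, with both compounds against vehicle from 0.01 to -0.09 once GC and length trends were taken out and to -0.12 with median centring, which also moved GSK805 against vehicle from 0.04 to -0.04. Median centring moved the median of all genes with ILA from 0.06 to -0.07 and the share of calls that were higher from 58.6% to 40.9%, and quantile normalization moved that share to 46.3%. With 3 libraries per group, some differences near 0.1 were called and others were not, such as 0.11 for Exosc10 with ILA and -0.13 for Wdr12 with both compounds.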
